A study of Homo sapiens with 4 samples.

Results

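The 10 genes described here are XKR7, MMP24, RUNDC3A, CELSR3, DRD2, AP3B2, NMNAT2, TMEM145, TMEM198 and ASPHD1, out of 40188 genes with values. They were chosen by their levels in these same libraries: each was higher in the cells induced for SRRM4 and for SRRM3 than in those induced for MSI1 or carrying an empty vector, and none belongs to the granins or to the vesicle fusion machinery. Other genes outside those groups had such levels too and are named further below. All 10 IDs were found in the files, and all 10 passed a filter of a mean of at least 1 cRPKM over the libraries. The cRPKM is a corrected RPKM, that is, reads scaled to the length of the gene and the depth of the library.

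The cells were HEK293, an established human embryonic kidney line. There were 4 groups with 1 library each: stable lines with a doxycycline-inducible SRRM4, SRRM3 or MSI1, and a control line with an empty vector. All 4 groups, the control included, received 1 µg/mL doxycycline for 24 h. The libraries were stranded, polyA-selected RNA-seq, with 60288244 counts for SRRM4, 62892722 for SRRM3, 63003121 for MSI1 and 62083851 for the empty vector. With 1 library per group no difference had a replicate check, no test or p-value was possible, and the effect of a transgene cannot be told apart from a difference between lines. Fewer expressing cells and less RNA per cell cannot be told apart in such bulk samples either. Ratios are of counts scaled to library totals, with 95% counting intervals in brackets; repeated PCR copies of 1 molecule count as several reads, and these intervals hold nothing but counting error.

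SRRM3 and SRRM4 are related nuclear splicing regulators that promote inclusion of short neural exons called microexons. MSI1 is an RNA-binding protein of neural progenitors and is not an SRRM protein. Many neuronal genes are kept silent outside the nervous system by the repressor REST, which binds a DNA element named RE1, and SRRM4 is known to alter splicing of REST itself. Values here are per gene, so they show how much transcript there was and not which exons it held. Most of the 10 genes have roles at the neuronal surface, in axons or in the sorting of vesicle cargo.

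Sequence near the gene starts is shown first, because several of these genes are known mainly from neurons and RE1 elements are a common feature of such genes. A promoter window (from 250 bases before to 50 bases after the RefSeq start, GRCh38.p14) was at hand for MMP24, CELSR3, AP3B2, NMNAT2, TMEM145 and TMEM198, with 7 windows in all since NMNAT2 has 2. DRD2, RUNDC3A, ASPHD1 and XKR7 had none. Both strands were searched for the left block of RE1, CAGCACC, for its right block, GGACAG, for the left block followed after 2 bases of any kind by the right block, and for the GC box GGGCGG. The blocks of RE1 do not overlap each other or the GC box in these windows. The left block was in 3 of the 7 windows (CELSR3, TMEM198 and MMP24), against 7.75% of 35116 promoters. The right block was in 1 of 7 (CELSR3), against 20.5% of all promoters. The joined blocks were in none of the 7 and in 0.051% of all. The GC box was in 5 of 7, against 44.954% of all. The 7 windows were richer in G and C, with a median of 67.0% against 58.67% over all promoters. The part of this in the shares above was not tested, and with 7 windows no enrichment is read from them. The 3 windows with a left block are printed on the strand of the gene, with the RE1 blocks in capitals. The match in MMP24 lies on the opposite strand and so appears as its reverse complement.
CELSR3, chr3:48662837-48663136, minus strand: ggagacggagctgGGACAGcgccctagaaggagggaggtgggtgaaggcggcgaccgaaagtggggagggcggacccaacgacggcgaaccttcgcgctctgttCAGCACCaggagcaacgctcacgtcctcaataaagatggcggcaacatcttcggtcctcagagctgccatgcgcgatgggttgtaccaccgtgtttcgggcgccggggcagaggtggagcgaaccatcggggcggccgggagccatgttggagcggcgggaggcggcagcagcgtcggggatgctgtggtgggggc
TMEM198, chr2:219543413-219543712, plus strand: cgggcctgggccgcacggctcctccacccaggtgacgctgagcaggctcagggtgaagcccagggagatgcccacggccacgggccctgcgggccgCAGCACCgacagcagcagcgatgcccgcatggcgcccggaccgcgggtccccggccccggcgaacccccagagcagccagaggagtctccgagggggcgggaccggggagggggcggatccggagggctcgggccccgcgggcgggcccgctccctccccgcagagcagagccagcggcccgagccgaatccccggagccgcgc
MMP24, chr20:35226440-35226739, plus strand: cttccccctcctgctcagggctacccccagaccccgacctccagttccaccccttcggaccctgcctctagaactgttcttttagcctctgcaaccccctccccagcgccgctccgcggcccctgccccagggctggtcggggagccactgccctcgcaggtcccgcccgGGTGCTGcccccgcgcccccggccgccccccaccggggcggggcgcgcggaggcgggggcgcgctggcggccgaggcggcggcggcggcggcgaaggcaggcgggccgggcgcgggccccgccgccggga

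In the CELSR3 window the right block begins 237 bases before the start and the left block 146 bases before it, the reverse of their order in RE1. A search of GENCODE 29 transcripts for the joined blocks was added after the data had been seen. Of 19684 genes with a protein-coding transcript, 71 (0.361%) held a match, and of the 10 genes XKR7 alone did so. The XKR7 transcript (7844 bases, 3 exons) held 2 matches, both in the coding part of exon 1. They are printed because XKR7 had the lowest level outside the SRRM libraries and the highest count ratios. Capitals mark the 15 bases from the first to the last base of the match.
XKR7, chr20:31968556-31968570, plus strand: cgtCAGCACCAAGGACAGcgtagc
XKR7, chr20:31968592-31968606, plus strand: catCAGCACCAAGGACAGcgccgg
Of the 27 genes that were at least 2-fold higher in all 4 pairings of an SRRM library with MSI1 or the empty vector, 26 had such a transcript and 3 held a match, namely XKR7, SYT4 and CHRNB2. A match is a description of letters and not evidence of binding, and binding was not measured.

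The induced genes were high in their own libraries. SRRM4 was at 63.78 cRPKM in the SRRM4 library and SRRM3 was at 38.53 cRPKM in the SRRM3 library, from 32240 and 8634 reads. The ratio of these levels, 1.66, rests on the gene lengths used for cRPKM, and the reads differ by more. SRRM3 was at 1.39 cRPKM in the SRRM4 library, against 0.61 in MSI1 and 0.49 in the empty vector. SRRM4 was at 0.39 cRPKM in the empty vector from 201 reads. It was at 0.18 in SRRM3 from 95 reads and at 0.01 in MSI1 from 6 reads. MSI1 was at 62.43 cRPKM in its own library, against 8.19 in SRRM4, 10.56 in SRRM3 and 8.38 in the empty vector. Of 8 genes listed for HEK293 and kidney epithelium, 6 were at 1 cRPKM or more in SRRM4, 7 in SRRM3, 7 in MSI1 and 6 in the empty vector. The list is a mixed one that includes VIM and CDH2. Its kidney genes were low or absent. LHX1 lay between 3.71 and 4.75 cRPKM, and PAX8 did not exceed 0.02. PAX2 was at 0.73 in SRRM4, 1.25 in SRRM3, 1.05 in MSI1 and 0.83 in the empty vector. The 14 neuron markers summed to 22.4 cRPKM in SRRM4, 23.9 in SRRM3, 26.8 in MSI1 and 17.02 in the empty vector, mostly TUBB3. DCX and SLC17A6 were at 0 in every library, and 6 of the 14 stayed below 0.1 cRPKM throughout. Of the neuron markers, SNAP25 had 31 reads in SRRM4 and 23 in SRRM3, against 1 in MSI1 and 2 in the empty vector. STMN2 had 9, 40, 1 and 1 reads in SRRM4, SRRM3, MSI1 and the empty vector. Other neuron markers did not share that order. In the same order of libraries RBFOX3 had 11, 9, 20 and 12 reads and SLC17A7 had 32, 26, 61 and 27. MAP2 was at 1.59, 2.34, 2.12 and 1.93 cRPKM, lowest in SRRM4. The neuron markers as a set are thus not read as raised in the SRRM libraries. The summed markers of glia lay between 3.61 and 4.11 cRPKM, those of fibroblasts between 4.03 and 4.87, those of blood between 0 and 0.39 and those of photoreceptors between 0.55 and 0.79. COL1A2 and DCN were listed at 0 cRPKM in each library with at most 1 read, and ARR3 and GNAT1 had no read in any. The 13 mitochondrial mRNAs summed to 11213 cRPKM in SRRM4, 15974 in SRRM3, 12854 in MSI1 and 10739 in the empty vector. The part of these differences in the results below was not tested.

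All 10 genes had both SRRM libraries above both others. Summed over the 10, they reached 40.8 cRPKM in SRRM4 and 39.85 in SRRM3, against 9.48 in MSI1 and 7.75 in the empty vector. A gene was called higher where the log2 ratio of cRPKM values, after adding 0.5 to each, was at least 1. By that rule all 10 were higher in each of the 4 pairings, as the choice of members requires, and nothing is read from that count. With 2 cRPKM added in place of 0.5, the count was 6 in SRRM4 and 5 in SRRM3 over the empty vector, and 3 in SRRM4 and 5 in SRRM3 over MSI1. The rule called 0.551% of genes higher in SRRM4 over the empty vector, 0.582% in SRRM3 over the empty vector, 0.504% in SRRM4 over MSI1 and 0.764% in SRRM3 over MSI1. It called 0.213% higher in all 4 pairings with every counting interval above 1. The median log2 ratio of the members was 1.87 for SRRM4 over the empty vector and 1.89 for SRRM3 over the empty vector, against -0.0035 for SRRM4 and 0.0029 for SRRM3 over all genes tested; these 2 comparisons share the empty-vector library. The filter did not treat the members evenly: only 3 of the 10 had a mean of at least 1 cRPKM over MSI1 and the empty vector, and XKR7 averaged exactly 1 over the 4 libraries.

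**Figure D1:**
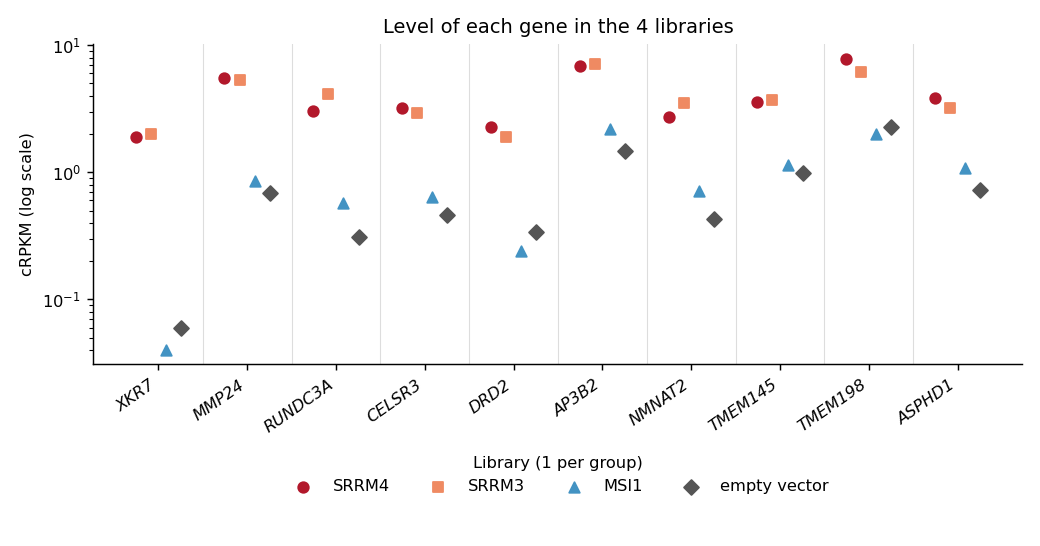
Level of each of the 10 genes (cRPKM, log scale) in the 4 libraries, 1 point per library. In every gene the SRRM4 and SRRM3 points lie above the MSI1 and empty-vector points; XKR7 has the lowest points outside the SRRM libraries, at 0.04 and 0.06 cRPKM.

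Among the genes with products at the cell surface, XKR7 showed the largest count ratios. XKR7 (ENSG00000260903, chromosome 20, 31968002 to 32003387, GRCh38) belongs to the XK-related family of membrane proteins, some of which scramble phospholipids. It was at 1.90 cRPKM in SRRM4, 2 in SRRM3, 0.04 in MSI1 and 0.06 in the empty vector, from 895, 981, 22 and 27 reads. The transcript was thus close to absent outside the SRRM libraries and at near equal levels within them. The ratio to the empty vector was 34.1 (23.3 to 52.1) for SRRM4 and 35.9 (24.5 to 54.7) for SRRM3. A sense-intronic gene that lies within XKR7, ENSG00000278012, had 94, 43, 2 and 3 reads in SRRM4, SRRM3, MSI1 and the empty vector. It lies on the same strand as XKR7 and failed the filter. Its reads cannot be told apart from those of unspliced XKR7 RNA, so it is not a separate observation.

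MMP24 (ENSG00000125966, chromosome 20, 35226654 to 35277000) encodes a membrane-type matrix metalloproteinase of the nervous system that cleaves N-cadherin. It was at 5.55 cRPKM in SRRM4, 5.29 in SRRM3, 0.85 in MSI1 and 0.69 in the empty vector, from 1458, 1448, 234 and 187 reads. Its ratio to the empty vector was 8.03 (6.89 to 9.40) for SRRM4 and 7.64 (6.56 to 8.95) for SRRM3. MMP24OS, which overlaps it on the opposite strand, stayed between 16.63 and 18.98 cRPKM. Whether the counting used strand is not stated in the labels, so reads of overlapping opposite-strand genes cannot be told apart with certainty.

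CELSR3 (ENSG00000008300, chromosome 3, 48636469 to 48662915) encodes an atypical cadherin needed for axon guidance, a member of the planar cell polarity pathway. It was at 3.21 cRPKM in SRRM4, 2.94 in SRRM3, 0.64 in MSI1 and 0.46 in the empty vector, from 2302, 2201, 477 and 341 reads. Over the empty vector the ratio was 6.95 (6.20 to 7.81) for SRRM4 and 6.37 (5.68 to 7.16) for SRRM3. The MSI1 library lay between the SRRM libraries and the empty vector.

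DRD2 (ENSG00000149295, chromosome 11, 113409615 to 113475691) encodes the dopamine D2 receptor, which signals through inhibitory G proteins. It was at 2.27 cRPKM in SRRM4, 1.89 in SRRM3, 0.24 in MSI1 and 0.34 in the empty vector, from 375, 326, 42 and 57 reads. In contrast to CELSR3, MSI1 was the lowest library. Its count ratio to the empty vector was 6.77 (5.12 to 9.12) for SRRM4 and 5.65 (4.25 to 7.62) for SRRM3.

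The next 3 genes act inside the neuron. RUNDC3A (ENSG00000108309, chromosome 17, 44308413 to 44318671) encodes a RUN-domain protein that binds the small GTPase RAP2. It was at 3.04 cRPKM in SRRM4, 4.14 in SRRM3, 0.57 in MSI1 and 0.31 in the empty vector, from 366, 520, 72 and 39 reads. Its ratio to the empty vector was 9.66 (6.94 to 13.8) for SRRM4 and 13.2 (9.5 to 18.7) for SRRM3, next in size to those of XKR7. RUNDC3A-AS1, its antisense gene, had 88, 107, 122 and 84 reads in SRRM4, SRRM3, MSI1 and the empty vector.

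AP3B2 (ENSG00000103723, chromosome 15, 82659281 to 82709914) encodes the neuronal β subunit of AP-3, an adaptor that sorts cargo into synaptic and lysosome-related vesicles. It was at 6.84 cRPKM in SRRM4, 7.06 in SRRM3, 2.21 in MSI1 and 1.46 in the empty vector, from 1520, 1636, 513 and 335 reads. AP3B2 had the highest level of the 10 in MSI1 and was next to TMEM198 in the empty vector. The ratio to the empty vector was 4.67 (4.15 to 5.28) for SRRM4 and 4.82 (4.28 to 5.44) for SRRM3.

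NMNAT2 (ENSG00000157064, chromosome 1, 183248237 to 183418602) encodes the short-lived axonal enzyme of NAD synthesis whose loss lets axons degenerate. It was at 2.70 cRPKM in SRRM4, 3.51 in SRRM3, 0.71 in MSI1 and 0.43 in the empty vector, from 902, 1224, 247 and 148 reads. The SRRM3 library was the highest, and MSI1 stood above the empty vector. Over the empty vector the ratio was 6.28 (5.27 to 7.52) for SRRM4 and 8.16 (6.88 to 9.75) for SRRM3.

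The other 3 are less well characterised, and their ratios were among the smaller ones. TMEM145 (ENSG00000167619, chromosome 19, 42313325 to 42325062) encodes a multi-pass membrane protein related to GPR180. It was at 3.57 cRPKM in SRRM4, 3.70 in SRRM3, 1.14 in MSI1 and 0.99 in the empty vector, from 370, 400, 124 and 106 reads. The ratio to the empty vector was 3.59 (2.89 to 4.5) for SRRM4 and 3.73 (3 to 4.66) for SRRM3.

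TMEM198 (ENSG00000188760, chromosome 2, 219543663 to 219550595) encodes a membrane protein that promotes phosphorylation of the Wnt co-receptor LRP6. It was at 7.85 cRPKM in SRRM4, 6.10 in SRRM3, 1.99 in MSI1 and 2.29 in the empty vector, from 1026, 832, 272 and 309 reads. It had the highest level of the 10 in the SRRM4 library and in the empty vector. The ratio to the empty vector was 3.42 (3.01 to 3.90) for SRRM4 and 2.66 (2.33 to 3.04) for SRRM3. CHPF overlaps it on the opposite strand, at 24.45 cRPKM in SRRM4, 25.52 in SRRM3, 19.81 in MSI1 and 17.80 in the empty vector.

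ASPHD1 (ENSG00000174939, chromosome 16, 29900375 to 29919864) is named for an aspartate beta-hydroxylase domain. It was at 3.87 cRPKM in SRRM4, 3.22 in SRRM3, 1.09 in MSI1 and 0.72 in the empty vector, from 358, 311, 105 and 69 reads. Its ratio to the empty vector was 5.34 (4.12 to 7.02) for SRRM4 and 4.45 (3.42 to 5.86) for SRRM3. It was the member nearest to the limit of the rule, with a smallest log2 ratio of 1.23 over the 4 pairings, followed by TMEM198 at 1.24. Just outside the limit were APBB3, PARP6 and GOLGA7B at 0.94 each, all with counting intervals above 1.

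Among the genes that passed the filter, all 10 lay below the median level in both SRRM libraries. That median was 10.8 cRPKM in SRRM4 and 10.85 in SRRM3, and genes under the filter, the larger part of those with values, are not in it. In SRRM4 the members stood between the percentile 10.7 (XKR7) and the percentile 40.9 (TMEM198) of the genes tested, and in SRRM3 between 9.63 (DRD2) and 37.6 (AP3B2).

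**Figure D2:**
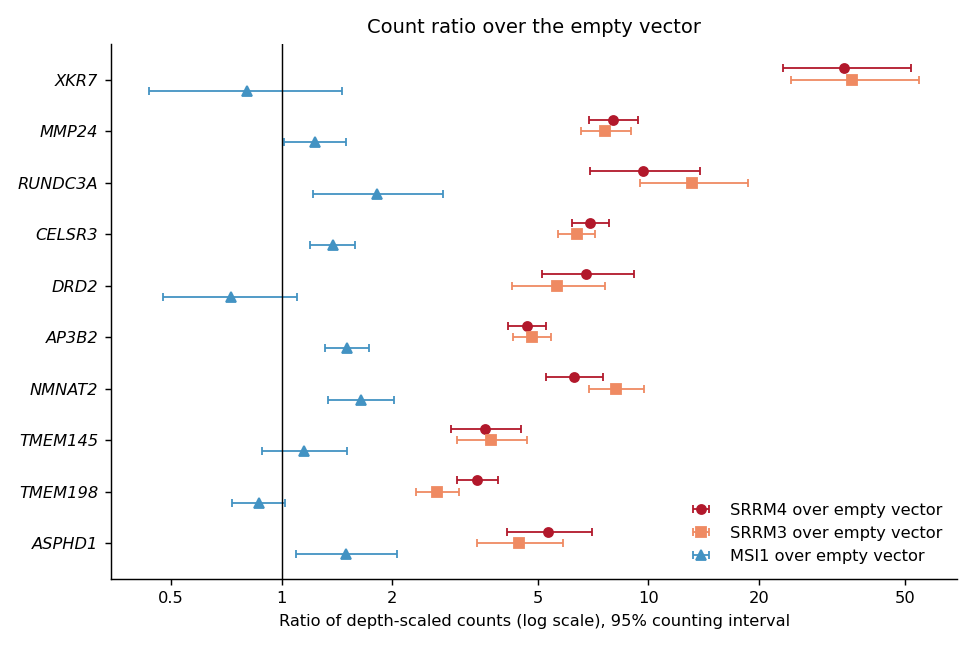
Ratio of depth-scaled counts over the empty vector for each of the 10 genes (log scale), with bars for 95% counting intervals and 1 library per group. SRRM4 and SRRM3 ratios lie between 2.66 and 35.9, while the MSI1 ratios lie between 0.726 and 1.82 and spread to both sides of 1.

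The membership rule did not fix the order of the libraries within each pair, so these orders were described next. SRRM4 over SRRM3 compares the libraries in which the members were high. The 10 did not share 1 order: 4 of them had a counting interval above 1 (TMEM198, ASPHD1, DRD2 and CELSR3), 2 had one below 1 (RUNDC3A and NMNAT2), and 4 intervals spanned 1 (XKR7, MMP24, AP3B2 and TMEM145). Of all genes tested, 27.1% had an interval above 1 and 30.5% one below 1, so counting error alone sets a low bar between these deep libraries. The ratios reached from 0.734 (0.641 to 0.841) for RUNDC3A to 1.29 (1.17 to 1.41) for TMEM198, with a median of 1.01. NMNAT2 had a ratio of 0.769 (0.705 to 0.839), and CELSR3 one of 1.09 (1.03 to 1.16).

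The other 17 genes of the set that was higher in all 4 pairings were arranged otherwise. Of them 13 had an interval below 1 in SRRM4 over SRRM3, 3 had one above 1 (MPP3, NAPB and VGF) and 1 spanned 1. Their median ratio was 0.793, with a lowest value of 0.466 for CHGA, the granin of dense-core vesicles, and a highest of 1.42 for MPP3. PHF21B, ACTL6B, CHRNB2, CCDC92B and MPP3, which are among the 17, also lay outside the granin and vesicle fusion lists. Their ratios were 0.63 for PHF21B, 0.55 for ACTL6B, 0.64 for CHRNB2, 0.80 for CCDC92B and 1.42 for MPP3. The contrast of the 10 with the 17 therefore depends on which genes were listed as members. That difference was not tested, since each library stands alone and the lists were drawn up by function with these values known.

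**Figure D3:**
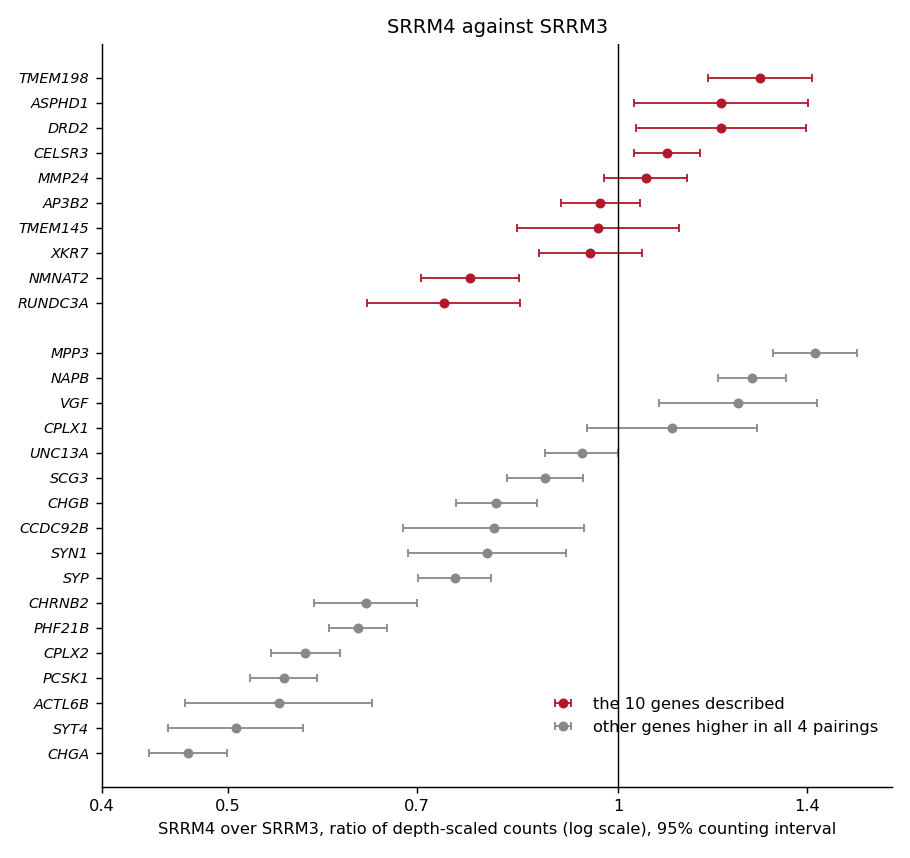
Ratio of depth-scaled counts in SRRM4 over SRRM3 (log scale) with 95% counting intervals, for the 10 genes (red) and the 17 other genes higher in all 4 pairings (grey). The 10 lie between 0.734 and 1.29 on both sides of 1, and 13 of the 17 lie wholly below 1.

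MSI1 over the empty vector compares the libraries in which the members were low. Here 7 of the 10 had a ratio above 1, and 6 had a counting interval above 1 (RUNDC3A, NMNAT2, AP3B2, ASPHD1, CELSR3 and MMP24), none had one below 1, and 4 spanned 1. Over all genes tested 32.3% had an interval above 1 and 27.6% one below 1. The ratios were 1.82 (1.22 to 2.76) for RUNDC3A, 1.64 (1.34 to 2.03) for NMNAT2, 1.51 (1.31 to 1.74) for AP3B2 and 1.5 (1.10 to 2.06) for ASPHD1. XKR7 at 0.803 (0.436 to 1.46), DRD2 at 0.726 (0.475 to 1.10) and TMEM198 at 0.867 (0.734 to 1.02) leaned the other way within counting error. Even RUNDC3A, the member with the highest MSI1 ratio, had 72 reads in MSI1 against 520 in SRRM3.

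Close relatives of the members were described to see whether whole families moved. Of 32 listed relatives 18 passed the filter, and none was 2-fold higher or lower in SRRM4 or SRRM3 over the empty vector. The 2-fold rule called 0.551% of all genes higher and 0.22% lower in SRRM4, and 0.582% higher and 0.299% lower in SRRM3. A count of 0 among 18 genes is close to these shares, so nothing particular to the families is read from it. AP3B1, which encodes the widely expressed alternative to the neuronal β subunit AP3B2, was at 16.76 cRPKM in SRRM4, 19.82 in SRRM3, 25.66 in MSI1 and 24.10 in the empty vector. It therefore ran against AP3B2, with a ratio to the empty vector of 0.695 (0.672 to 0.719) for SRRM4 and 0.822 (0.797 to 0.849) for SRRM3, short of the 2-fold rule. AP3M2, the neuronal μ subunit, was at 8.75, 8.42, 9.57 and 9.11 cRPKM in SRRM4, SRRM3, MSI1 and the empty vector. The remaining AP-3 subunits AP3D1, AP3M1, AP3S1 and AP3S2 lay above AP3B2 in every library.

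NMNAT1, the nuclear enzyme of the NMNAT family, was at 3.59 cRPKM in SRRM4, 3.44 in SRRM3, 4.82 in MSI1 and 3.72 in the empty vector. NMNAT3 lay between 0.76 and 0.92 cRPKM. NMNAT2 thus stood below NMNAT1 in the empty vector and close to its level in SRRM3. CELSR1 lay between 6.29 and 7.21 cRPKM and CELSR2 between 9.69 and 10.48, so CELSR3 remained the least abundant of the 3 in every library. Among membrane-type metalloproteinases MMP15 was the most abundant, at 20.32 cRPKM in SRRM4, 28.06 in SRRM3, 19.28 in MSI1 and 21.91 in the empty vector. MMP14, MMP16, MMP17 and MMP25 lay between 0.13 and 1.83.

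XKR8, the caspase-activated scramblase, lay between 12.23 and 13.72 cRPKM and XK between 3.30 and 4.88, while XKR3, XKR4, XKR5, XKR6, XKR9 and XKRX stayed at or below 0.37. The dopamine receptor genes DRD1, DRD4 and DRD5 did not exceed 0.19 cRPKM in any library and DRD3 was listed at 0. DRD2 thus had the highest listed level of the dopamine receptor genes in all 4. In MSI1 that order is not secure, with DRD2 at 0.24 cRPKM from 42 reads and DRD4 at 0.19 from 15 reads. RUNDC3B lay between 1.70 and 2.38 and RUNDC1 between 11.23 and 13.38. GPR180 lay between 4.12 and 4.74, ASPHD2 between 2.51 and 2.94 and ASPH between 13.06 and 14.77.

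**Figure D4:**
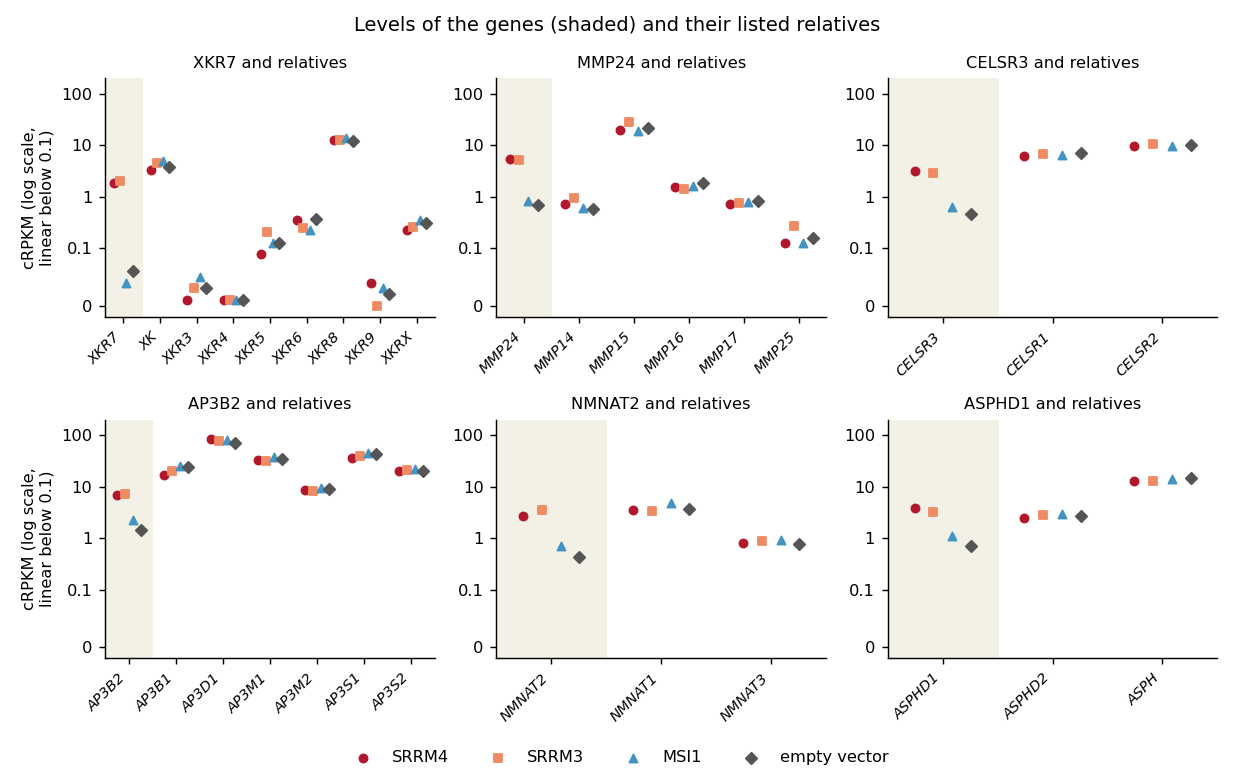
Level (cRPKM, log scale, linear below 0.1) of 6 of the genes (shaded) and their listed relatives, 1 point per library. The shaded gene splits into a high SRRM pair and a low pair, whereas none of its relatives that passed the filter is 2-fold apart in SRRM4 or SRRM3 over the empty vector.

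The pathways in which the members act were described from 8 lists with 87 genes found, of which 72 passed the filter. None of these 72 was 2-fold higher or lower over the empty vector in SRRM4 or SRRM3. Over all genes tested the rule called 0.551% higher and 0.22% lower in SRRM4, and 0.582% higher and 0.299% lower in SRRM3. A count of 0 is close to these shares, so nothing particular to the pathways is read from it. The planar cell polarity genes (11 of 12 passing) had a median log2 ratio of 0.0049 in SRRM4 and 0.16 in SRRM3. The genes of NAD supply and axon survival (10 of 13 passing) had medians of -0.052 in SRRM4 and -0.047 in SRRM3. Dopamine signalling genes (10 of 19 passing) had medians of -0.016 in SRRM4 and 0.12 in SRRM3. AP-3 and BLOC-1 genes (14 of 15 listed passing) had medians of -0.064 in SRRM4 and -0.034 in SRRM3. The medians of genes that process or are cut by MMP24 were -0.095 in SRRM4 and 0.17 in SRRM3 (6 passing), and those of phospholipid scrambling were 0.034 in SRRM4 and -0.030 in SRRM3 (9 passing). The RAP2 GTPases (3 passing) had medians of -0.051 in SRRM4 and -0.055 in SRRM3. The genes of LRP6 phosphorylation (9 passing) had medians of 0.071 in SRRM4 and 0.060 in SRRM3. The list with the median farthest from 0 was thus that of MMP24 processing and substrates, in SRRM3.

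GNAO1, the G protein subunit through which DRD2 signals in neurons, failed the filter. It was at 0.71 cRPKM in SRRM4, 1.42 in SRRM3, 0.48 in MSI1 and 0.35 in the empty vector, and its ratio to the empty vector was 2.03 (1.52 to 2.74) for SRRM4 and 4.09 (3.14 to 5.37) for SRRM3. It was singled out after its values were seen.

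Genes next to the members were described to see whether a wider stretch of chromosome differed between the libraries. For 17 of the nearest protein-coding genes on either side of the members values are given, and 11 of them passed the filter. Over all genes tested the rule called 0.551% higher and 0.22% lower in SRRM4 over the empty vector. In SRRM3 it called 0.582% higher and 0.299% lower. The median log2 ratio over all genes tested was -0.0035 in SRRM4 and 0.0029 in SRRM3. In SRRM4 none of the 11 was 2-fold higher or lower over the empty vector, with log2 ratios from 0.057 to 0.94 and a median of 0.19. In SRRM3 there was 1 that was 2-fold higher, with log2 ratios from -0.29 to 1.28 and a median of 0.21. This was SEZ6L2, a transmembrane protein of neurons, which lies 828 bases from ASPHD1 on the opposite strand. SEZ6L2 was at 13.32 cRPKM in SRRM4, 17.05 in SRRM3, 12.65 in MSI1 and 6.72 in the empty vector. It was therefore low in the empty vector only, whereas ASPHD1 was low in MSI1 as well. KCTD13, which overlaps ASPHD1 on the opposite strand, was at 7.03, 7.89, 9 and 6.22 cRPKM in SRRM4, SRRM3, MSI1 and the empty vector.

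Neighbours of the other members differed less from the empty vector. EIF6 and PROCR beside MMP24, SLC25A39 beside RUNDC3A, SLC26A6 and NCKIPSD beside CELSR3, PDRG1 beside XKR7, PRR19 beside TMEM145, and TMEM219 on the far side of ASPHD1 had log2 ratios over the empty vector between -0.29 and 0.27. CPEB1 beside AP3B2 was at 4.16 cRPKM in SRRM4, 4.45 in SRRM3, 5.20 in MSI1 and 3.20 in the empty vector. OBSL1, 134 bases from TMEM198, was at 25.09, 29.53, 19.20 and 20.76 cRPKM in SRRM4, SRRM3, MSI1 and the empty vector. CCM2L, SLC4A1, ANKK1, TMPRSS5, FSD2 and ASIC4 failed the filter and did not exceed 0.22 cRPKM, so XKR7, RUNDC3A, DRD2, AP3B2 and TMEM198 each had a neighbour that was nearly silent in all 4 libraries.

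**Figure D5:**
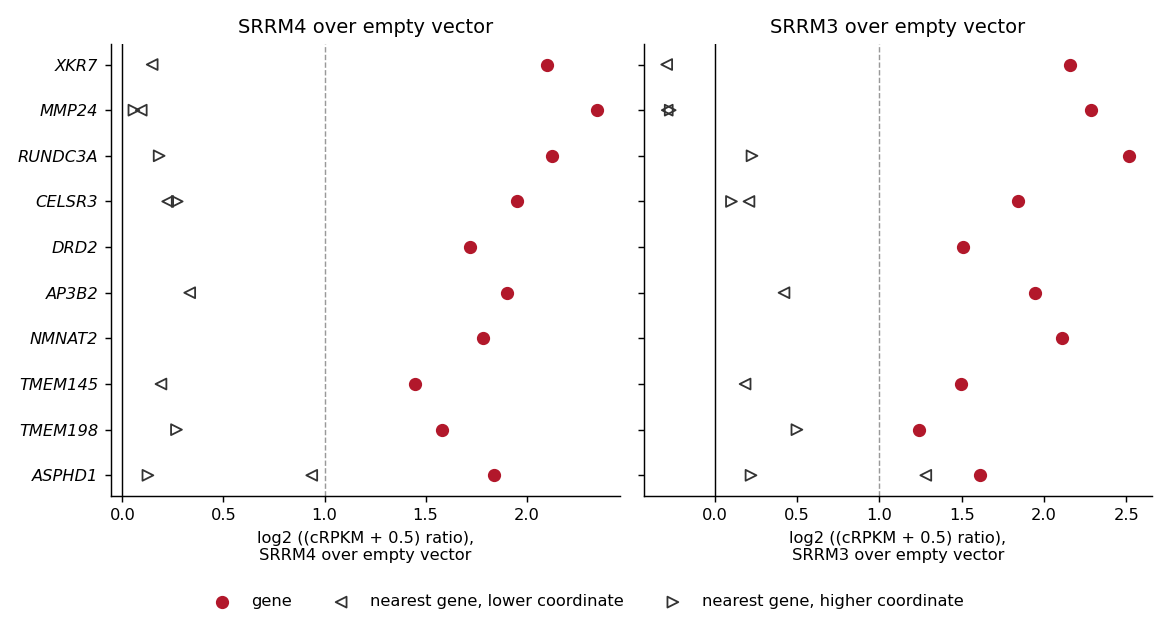
log2 ratio of cRPKM + 0.5 over the empty vector for each gene (red) and for its reported nearest protein-coding genes that passed the filter (open triangles), in SRRM4 (left) and SRRM3 (right); the dashed line marks the 2-fold rule. All 10 genes lie right of the line in both, and of the 11 neighbours shown SEZ6L2 alone passes it, in SRRM3.

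The genes whose pattern over the 4 libraries was most like the average of the 10 were found by the Euclidean distance between centred log2 values of cRPKM + 0.5. The nearest was CPLX1, a regulator of vesicle fusion, at a distance of 0.097, followed by SYN1 at 0.23, MPP3 at 0.35, SYP at 0.39, CCDC92B at 0.42, VGF at 0.47, MIR6834 at 0.48 and NAPB at 0.56. CPLX1 was at 2.82 cRPKM in SRRM4, 2.57 in SRRM3, 0.54 in MSI1 and 0.39 in the empty vector. MIR6834 rests on 4, 7, 1 and 1 reads in SRRM4, SRRM3, MSI1 and the empty vector, so its place is within counting error.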

How the data were processed

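RNA was measured in 4 libraries. The authors deposited per gene a raw read count and a cRPKM, which the file names give and which is read here as a corrected RPKM, the correction itself not being described; the submitters' processing notes name GRCh38 (hg38), with aligner, annotation and strand setting (not given in the sources used here) unknown. Of 41614 gene IDs, 1426 had no value and 39941 of the other 40188 matched a symbol in GENCODE 29. Log2 ratios used cRPKM + 0.5 for genes with a mean of at least 1 cRPKM (12706 genes), and the induced gene of either library was left out of that pair. Count ratios used total counts, with exact conditional 95% intervals (Python 3.11.15, scipy 1.17.1); edgeR 4.0.16 in R 4.3.3 gave TMM factors for an alternative. The scripts were tested on simulated data. The members and lists were chosen with earlier results of these data known. Named were the members, induced genes, listed relatives, called pathway genes, nearest and overlapping genes, and the 8 genes most alike in pattern. Some neighbouring genes are not reported here. Alternatives were other pseudocounts, filters, fold rules, centring, TMM scaling and MSI1 as control.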

Additional observations from a re-analysis of the deposited data

Results flagged for a closer look

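Among 59 genes (the members, their relatives and the neighbours reported), 4 lay on opposite sides of the empty vector in the SRRM libraries, with counting intervals that left out 1 on both sides. All 4 are among the 39 of the 59 that passed the filter, and of all 12704 genes tested 1024 (8.06%) did the same, so nothing particular to these genes is read from the count. XK, a relative of XKR7, had a count ratio of 0.872 (0.801 to 0.948) in SRRM4 and 1.188 (1.10 to 1.283) in SRRM3. MMP15, a relative of MMP24, had a ratio of 0.927 (0.893 to 0.963) in SRRM4 and 1.281 (1.237 to 1.326) in SRRM3. PDRG1, next to XKR7, had a ratio of 1.11 (1.044 to 1.18) in SRRM4 and 0.810 (0.759 to 0.865) in SRRM3. EIF6, next to MMP24, had a ratio of 1.04 (1.008 to 1.074) in SRRM4 and 0.828 (0.801 to 0.855) in SRRM3. With 1 library per group these differences were not tested.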

How the results depend on the processing

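No paired analysis was possible because each group has 1 library. With a pseudocount of 2 cRPKM, 6 members were 2-fold higher in SRRM4 over the empty vector, 5 in SRRM3 over the empty vector, 3 in SRRM4 over MSI1, 5 in SRRM3 over MSI1 and 2 in all 4 pairings. With a mean of at least 5 cRPKM all of these counts were 0, since no member has such a mean. Over the 160 alternatives for single members in these comparisons, 160 log2 ratios stayed positive and 139 were at least 1 (0.73 to 4.25). The members were chosen as higher in these same comparisons, and another pseudocount cannot change the sign. Nothing is therefore read from the count of positive ratios. Without a filter, 1 pathway gene, GNAO1, was 2-fold higher in SRRM3. With MSI1 as control, 0 of the neighbours reported were 2-fold higher in SRRM3. With TMM library sizes, an alternative chosen after seeing the data, 4 members were above and 2 below 1 in SRRM4 over SRRM3, and 5 were above 1 in MSI1 over the empty vector in place of 6.

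Counts over all genes depended on the settings. The 70 genes higher in SRRM4 over the empty vector became 31 with a pseudocount of 2, 153 without a filter, 13 at a mean of 5, 152 at 1.5-fold and 46 with intervals. The 74 in SRRM3 became 32, 171, 15 and 219 under the first 4 of these. Over MSI1, the 64 for SRRM4 became 30, 146, 14, 199 and, with intervals, 41, and the 97 for SRRM3 became 48, 201, 27 and 306. The 27 in all 4 pairings became 12 with a pseudocount of 2, 6 at a mean of 5 and 41 at 1.5-fold. The 28 lower in SRRM4 became 12, 85, 2, 81 and, with intervals, 7; the 38 lower in SRRM3 became 18, 106, 7, 112 and 11. With TMM-scaled CPM the split was 49 higher and 3 lower in SRRM4, and 58 higher and 15 lower in SRRM3. In the bases of the window nearest the start, the left RE1 block was in 1 window and the right block in 0. Among the 8 most similar genes, 4 were shared with a pseudocount of 2. Depth limits XKR7, with as few as 22 reads, more than the other members.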
